A study of Mus musculus with 8 samples.

Results

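The Iroquois homeobox genes Irx1 to Irx6, together with the homeobox gene Hhex and the POU-domain gene Pou3f4, were followed in the pancreas of young mice that carry a knockout of the transcription factor Glis3. They were taken as all non-control array probes whose gene name was one of these 8 symbols, which gave 13 probes of 41174 on the array. By name these are 8 of 27962 gene names. Irx2 had 3 probes, Irx1, Hhex and Pou3f4 had 2 each, and Irx3, Irx4, Irx5 and Irx6 had 1 each. The study set the pancreas of 4 Glis3KO2 mice against that of 4 WT mice, all C57BL/6 and 1 week old, and read total RNA labelled with Cy3 on Agilent mouse arrays, 1 sample per array. The title of the series places the comparison in beta cell development and maturation. The labels name Glis3KO2 a knockout without giving the deleted part of the gene, and separate litters are not stated. Each p-value here therefore sets the genotypes against the variation among these 8 samples, which may be technical in part.

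Iroquois proteins are homeodomain transcription factors of the TALE class, and in mammals their genes lie in a pair of clusters. Irx1 and Irx2 have been described in the glucagon cells of the developing mouse pancreas. Pou3f4, also called Brn4, is an early glucagon cell factor in the mouse. Hhex is needed for somatostatin-producing delta cells and, earlier, for the ventral pancreas and liver buds, and it is also made outside the islet. Irx3 to Irx6 are known mainly from heart, limb, fat and retina.

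The array reads each gene through single probes of 60 bases, and Irx2, Irx1, Hhex and Pou3f4 have more than 1 probe each. The tested Irx2 probes disagreed, and the dimmer probes of Irx1 and Pou3f4 were not tested. The sequences of the probes behind the results on these genes are shown, 5′ to 3′ and in lower case, with positions on mouse build mm7 as the array files give them. Whether a position is exonic coding sequence or UTR is not given here. The first 30 bases are shown for the probes listed first and all 60 bases for those listed after them.
Irx2, A_52_P398122 (chr13:69564443-69564502, plus strand), first 30 bases: tatgagaacttgttgtcatagtatagcttc
Irx2, A_51_P320281 (chr13:69563624-69564285, plus strand), first 30 bases: tacctataggagggccaaggtcagcagtgc
Irx1, A_52_P1092823 (chr13:68887509-68887548, minus strand), first 30 bases: ctttgtttcttttttcccctttctgtatat
Hhex, A_52_P528600 (chr19:37141162-37141221, plus strand), first 30 bases: tctcacacgaactagaaatagcaggacaat
Irx2, A_52_P635312 (chr13:69562330-69562389, plus strand), all bases: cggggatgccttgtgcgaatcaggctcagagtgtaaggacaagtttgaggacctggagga
Irx1, A_51_P149868 (chr13:68889116-68889175, minus strand), all bases: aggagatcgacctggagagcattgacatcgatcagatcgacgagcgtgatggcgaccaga
Hhex, A_51_P265824 (chr19:37137914-37137973, plus strand), all bases: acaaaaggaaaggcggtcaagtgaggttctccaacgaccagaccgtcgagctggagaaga
Pou3f4, A_51_P354003 (chrX:106142798-106142857, plus strand), all bases: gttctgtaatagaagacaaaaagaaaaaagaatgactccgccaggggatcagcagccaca
No probe of a member gene shared a run of 15 bases with a probe of another member gene. The positions given for A_51_P320281 span 662 bases for a probe of 60, and those for A_52_P1092823 span 40.

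Levels are log2 of the scanner's processed signal minus the 75th percentile of the same array, so that 0 is the level of a fairly bright probe and negative values are dimmer. Probes are ranked by brightness, and the levels of markers are summed within lists. A difference in level between 1 probe and another is not read as a difference in RNA amount. The arrays had between 31351 and 35628 probes well above background, 76.1% to 86.5% of all probes, and no saturated spot. On the first principal component, Glis3KO2 arrays 3 and 4 stood apart at 39.8 for array 3 and 59.0 for array 4, with the other 6 arrays between -26.0 and 0.46. Each genotype had a slide and a scan of its own, which means that an effect of the slide and one of genotype cannot be told apart. Xist, transcribed from the inactive X chromosome, was high on Glis3KO2 arrays 1, 3 and 4 and on WT array 4. All 8 acinar markers and all 10 beta cell markers looked up were detected on every array. The single Glis3 probe was well above background on 0 of 4 Glis3KO2 arrays and on 3 of 4 WT arrays, with levels of -6.06, -6.43, -5.93 and -6.15 against -6.06, -5.41, -5.50 and -5.35. If it lies outside the deleted part it checks nothing about the genotype.

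**Figure D1:**
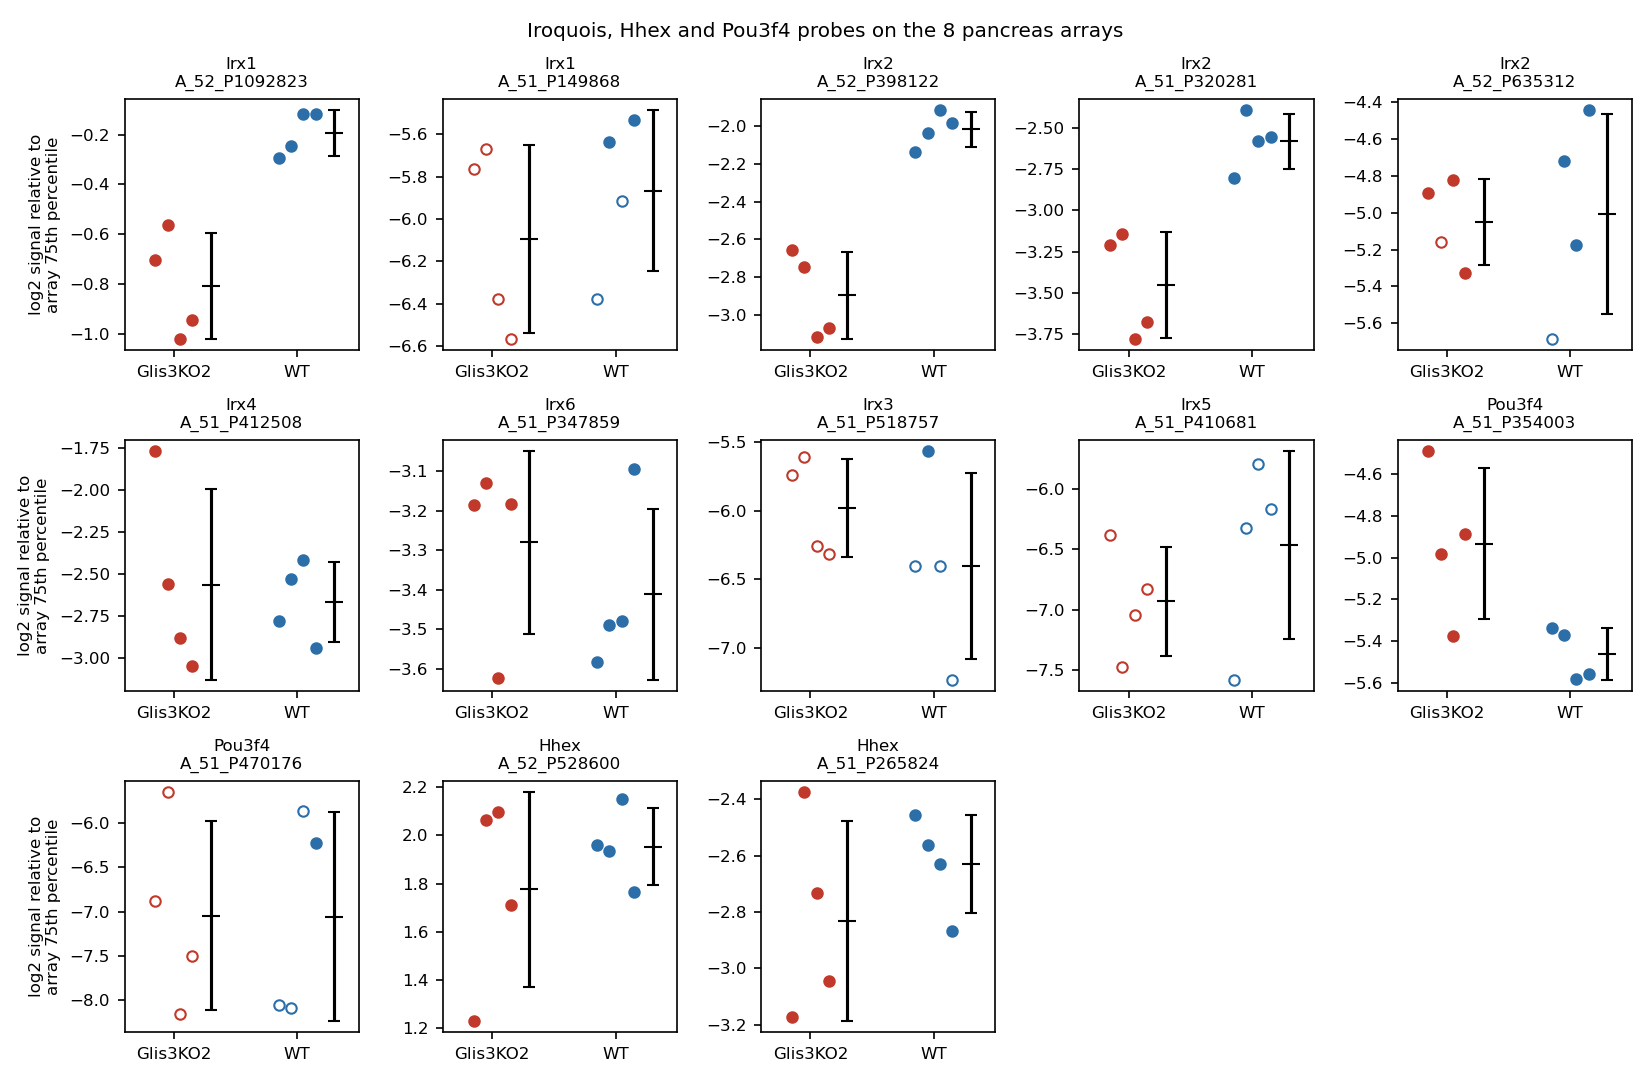
Level of every member probe on each array (log2 relative to the array's 75th percentile), Glis3KO2 left of WT; filled points are well above background, open points are not, and bars give the mean ± SD of 4 arrays. The 2 brighter Irx2 probes and the brighter Irx1 probe have every Glis3KO2 point below every WT point.

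Of the 13 member probes, 9 probes of 6 genes had a signal well above background on 4 or more of the 8 arrays and were tested, and 4 probes were not. With limma across 33238 probes, 1 member probe passed an adjusted p of 0.05, an Irx2 probe that was lower in Glis3KO2. Over all tested probes 0.256% were called in either direction, 0.174% lower and 0.0812% higher. The groups did not overlap, with Glis3KO2 lower, for 3 of the 9 member probes, against 3.35% of all tested probes. The share with Glis3KO2 higher and no overlap was 0 of the 9, against 1.85% of all. At an unadjusted p under 0.05 in limma, 3 of the 9 member probes were lower and 1 was higher, against 8.97% of all tested probes in either direction. Those 3 probes belong to Irx2 and Irx1, so they are 2 neighbouring genes and not 3 independent observations. The median difference was -0.18 over the 9 tested member probes and -0.01 over all tested probes. In whole pancreas, fewer cells of a type and less RNA per cell cannot be told apart.

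Irx2 fell in the Glis3KO2 pancreas on its brightest probe, A_52_P398122. Its levels were -2.65, -2.74, -3.12 and -3.07 on the Glis3KO2 arrays and -2.14, -2.03, -1.92 and -1.98 on the WT arrays. Every Glis3KO2 array was below every WT array. The means were -2.90 ± 0.23 in Glis3KO2 and -2.02 ± 0.09 in WT (SD, n = 4 each). The log2 difference was -0.88 with an SE of 0.13 and a 95% interval of -1.17 to -0.58, a 1.84-fold lower level, with an adjusted p of 0.0416 in limma. The probe was dim but well above background on all 8 arrays, with processed signals of 65.1 to 84.4 in Glis3KO2 and 112 to 140 in WT.

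This call was close to the threshold. It ended when any 1 array other than Glis3KO2 array 1 was left out, with differences of -0.96 to -0.80 and adjusted p-values of 0.0333 to 0.176 over the 8 such fits. Without Glis3KO2 arrays 3 and 4 together the difference was -0.68 (limma adjusted p = 0.209), and with Xist as a covariate it was -0.84 (limma adjusted p = 0.230). With normexp background correction it was -0.57 (limma adjusted p = 0.0619). Among the arrays with high Xist, Irx2 stood at -2.65, -3.12 and -3.07 in Glis3KO2 and at -1.98 in WT. Among those with low Xist it stood at -2.74 in Glis3KO2 and at -2.14, -2.03 and -1.92 in WT. Each of these splits has a group of 1 array, and the part of sex in the difference was not tested.

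The second Irx2 probe, A_51_P320281, had a difference of the same size that did not pass. Its levels were -3.21, -3.14, -3.78 and -3.67 in Glis3KO2 and -2.80, -2.39, -2.58 and -2.56 in WT. The groups again did not overlap, with a difference of -0.87 (SE 0.17, 95% interval -1.25 to -0.48, limma adjusted p = 0.121). The dimmest Irx2 probe, A_52_P635312, disagreed with both. It read -4.89, -5.16, -4.82 and -5.33 in Glis3KO2 and -5.68, -4.72, -5.18 and -4.44 in WT, and the groups overlapped. It was well above background on 3 of 4 arrays in each group, and its difference of -0.04 had a 95% interval of -0.62 to 0.53 (limma adjusted p = 0.981). The 95% intervals of A_52_P635312 and A_52_P398122 overlapped between -0.62 and -0.58.

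Irx1, the neighbour of Irx2 in the cluster, had a smaller difference on its brighter probe, A_52_P1092823. The levels were -0.71, -0.56, -1.02 and -0.94 in Glis3KO2 and -0.30, -0.24, -0.12 and -0.12 in WT. Every Glis3KO2 array was below every WT array. The means were -0.81 ± 0.21 in Glis3KO2 and -0.19 ± 0.09 in WT (SD, n = 4 each), a difference of -0.62 (SE 0.12, 95% interval -0.90 to -0.33) or 1.53-fold, which did not pass (limma adjusted p = 0.132). With a variance trend and robust moderation the same difference had an adjusted p of 0.0486 in limma, the lowest of the alternatives, which reached 0.515. The other Irx1 probe, A_51_P149868, was well above background on 0 Glis3KO2 and 2 WT arrays and was not tested. Its levels overlapped, at -6.57 to -5.67 in Glis3KO2 and -6.38 to -5.53 in WT, and the lowest measurable signal left no room for a bound above 1.

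**Figure D2:**
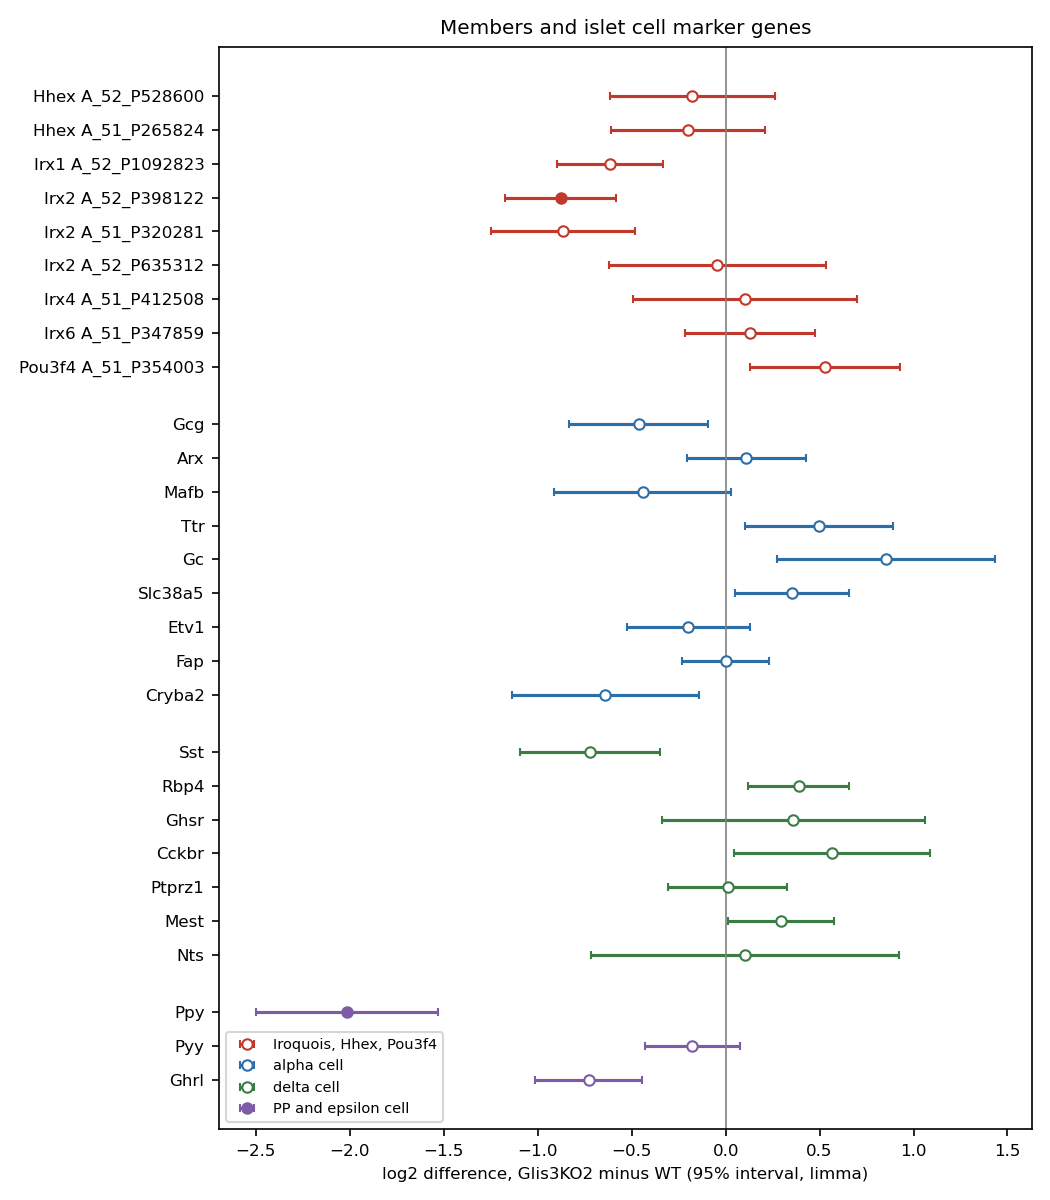
Log2 difference, Glis3KO2 minus WT, with its 95% interval from limma, for each tested member probe and for the tested marker genes of other islet cells. The markers are those of alpha, delta, pancreatic polypeptide and ghrelin cells, each by its brightest probe. Filled points have an adjusted p under 0.05. Among the member probes only the brightest Irx2 probe is filled, at -0.88, and among the markers only Ppy, at -2.01. The 2 Irx2 probes near -0.87 stand apart from the third at -0.04.

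Irx4, a gene known from the ventricles of the heart, closes the chromosome 13 cluster and gave no call. Its levels were -1.77, -2.56, -2.88 and -3.05 in Glis3KO2 and -2.78, -2.53, -2.41 and -2.94 in WT. Glis3KO2 array 1 was the highest of all 8, Glis3KO2 array 4 the lowest, and the groups overlapped. The difference of 0.10 had a 95% interval of -0.49 to 0.70 (limma adjusted p = 0.946), and without Glis3KO2 array 1 it was -0.16. A decrease as large as the point estimate for Irx2 lies outside that interval.

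In the other cluster Irx6, known from retinal bipolar cells in the mouse, was the single member that could be tested. It read -3.19, -3.13, -3.62 and -3.18 in Glis3KO2 and -3.58, -3.49, -3.48 and -3.10 in WT. Glis3KO2 array 3 was the lowest of the 8 arrays and WT array 4 the highest, so the groups overlapped. The difference was 0.13 (95% interval -0.21 to 0.48, limma adjusted p = 0.856), and with normexp it was -0.03. Irx3 and Irx5, which in the mouse act in limb and heart development, were not measurable. The Irx3 probe was well above background on 0 Glis3KO2 and 1 WT array and the Irx5 probe on 0 of 8, so no fold is given for either. Their levels, -6.31 to -5.61 in Glis3KO2 and -7.23 to -5.57 in WT for Irx3, overlapped. Those of Irx5, -7.47 to -6.38 in Glis3KO2 and -7.58 to -5.79 in WT, overlapped as well.

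Position in the clusters gives a further description of the members. In the RefSeq gene order Irx1, Irx2 and Irx4 lie together on chromosome 13, with D730050B12Rik and 4930555K05Rik between Irx2 and Irx4, and Irx3, Irx5 and Irx6 lie together on chromosome 8. The 3 nearest measured genes on either side of each cluster made 12 neighbours, of which 10 were tested. With limma 0 of the 10 passed the adjusted threshold and 1 had an unadjusted p under 0.05, against the same 8.97% of all tested probes. That gene was Adamts16, a secreted metalloprotease gene, which 8030423J24Rik separates from Irx1. Its levels were -0.75, -0.23, -0.31 and -0.81 in Glis3KO2 and 0.59, 0.23, 0.77 and 0.51 in WT, with no overlap. The difference was -1.05 (95% interval -1.44 to -0.66, limma adjusted p = 0.0673). It passed with normexp at -0.93 (limma adjusted p = 0.0135, against 0.00766 to 0.305 over all alternatives), while a second Adamts16 probe read -0.16 (limma adjusted p = 0.844).

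The other 9 tested neighbours had differences between -0.30 and 0.25, and their lowest adjusted p in limma was 0.574. Med10, a Mediator subunit gene, and Ndufs6 and Mrpl36, genes of mitochondrial proteins, read 0.08, 0.03 and 0.03. Fto, the RNA demethylase gene whose introns hold long-range enhancers of Irx3, had a difference of -0.30 on its brightest probe (limma adjusted p = 0.574) and 0.22 on both of its other probes. Between Irx2 and Irx4, D730050B12Rik had a difference of -0.22 with a 95% interval of -0.91 to 0.46. Lpcat1 and Lpcat2, genes of lysophospholipid acyltransferases, read -0.13 each, and Mmp2, a matrix metalloprotease gene, read 0.25. Rpgrip1l, a gene of the primary cilium, read 0.01 and 4831440D22Rik read -0.28, while 8030423J24Rik and Capns2 were too dim to test. Whether Irx2 differs from its neighbours in change was not tested.

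**Figure D3:**
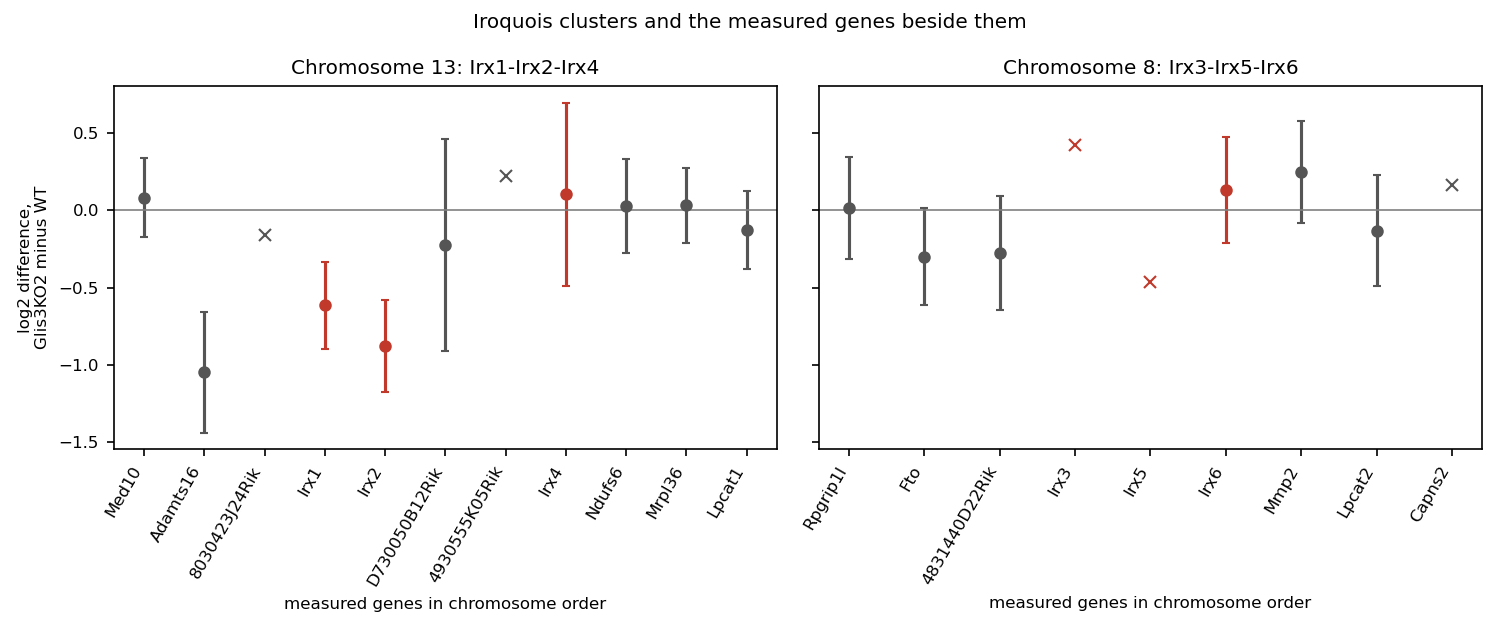
Log2 difference, Glis3KO2 minus WT, of the brightest probe of each gene in and around the 2 Iroquois clusters, in gene order, with 95% intervals from limma; Iroquois genes are red and a cross marks a gene that was not tested. Irx1, Irx2 and Adamts16 lie below 0 with intervals that exclude it, and the intervals of the other tested genes include 0.

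Hhex did not differ between the genotypes beyond the spread of the arrays. The brighter probe, A_52_P528600, read 1.23, 2.06, 2.09 and 1.71 in Glis3KO2 and 1.96, 1.93, 2.15 and 1.76 in WT. Glis3KO2 array 1 was the lowest and the remaining Glis3KO2 arrays lay in or just below the range of WT. The means were 1.78 ± 0.40 in Glis3KO2 and 1.95 ± 0.16 in WT (SD, n = 4 each). The difference was -0.18 (SE 0.19, 95% interval -0.62 to 0.26, limma adjusted p = 0.846). Without Glis3KO2 array 1 it was 0.0045.

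The dimmer Hhex probe, A_51_P265824, read -3.17, -2.38, -2.73 and -3.04 in Glis3KO2 and -2.46, -2.56, -2.63 and -2.87 in WT. The groups overlapped, and its difference of -0.20 (95% interval -0.61 to 0.21, limma adjusted p = 0.794) was close to that of the brighter probe. With Xist as a covariate it was 0.03. Both intervals reach decreases of about the size of the Irx1 difference, so a change of that size in Hhex is not excluded by these arrays.

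Pou3f4 was near the background limit. On A_51_P354003 it read -4.49, -4.98, -5.37 and -4.89 in Glis3KO2 and -5.34, -5.37, -5.58 and -5.56 in WT. Glis3KO2 array 3 lay within the range of the WT arrays and the other Glis3KO2 arrays lay above it. The difference was 0.53 (SE 0.18, 95% interval 0.13 to 0.93), but it did not pass over all probes (limma adjusted p = 0.430), and with normexp it was -0.02. Processed signals were 16.7 to 20.6 in Glis3KO2 and 10.7 to 12.3 in WT. The second probe, A_51_P470176, was well above background on 0 Glis3KO2 and 1 WT array and was not tested. Its levels overlapped, at -8.16 to -5.65 in Glis3KO2 and -8.09 to -5.87 in WT, and did not show the increase of the first probe.

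The hormones of the islet cells in which these factors are known set the scale for the factors. Gcg, the glucagon gene, read 7.43, 7.29, 6.71 and 6.89 in Glis3KO2 and 7.43, 7.56, 7.56 and 7.61 in WT, a difference of -0.46 (SE 0.16, limma adjusted p = 0.445). Sst, the somatostatin gene, read 4.69, 4.24, 4.02 and 4.02 in Glis3KO2 and 4.78, 5.05, 5.11 and 4.93 in WT, a difference of -0.72 (SE 0.16, limma adjusted p = 0.199). On these probes the groups did not overlap, but for Gcg the highest Glis3KO2 and the lowest WT array both read 7.43, and a second Gcg probe overlapped (-0.47, limma adjusted p = 0.582). Without Glis3KO2 array 1 the Sst difference was -0.87 and passed (limma adjusted p = 0.0424, the lowest of the alternatives, which reached 0.579). Ppy, the pancreatic polypeptide gene, fell 4.04-fold, with levels of 1.28, 1.15, 0.50 and 0.81 in Glis3KO2 and 3.03, 2.46, 3.24 and 3.06 in WT. Its difference of -2.01 had an adjusted p of 0.00648 in limma, and 0.00016 to 0.109 over the alternatives, with 0.0821 when Glis3KO2 arrays 3 and 4 were left out. The ghrelin gene Ghrl did not pass on its brightest probe (-0.73, limma adjusted p = 0.0790) or on its other probe (-0.62, limma adjusted p = 0.0820), though the groups overlapped on neither. Its brightest probe passed with normexp and with a variance trend, and its limma adjusted p ran between 0.0118 and 0.313 over the alternatives. The peptide YY gene Pyy did not pass (-0.18, limma adjusted p = 0.693).

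The marker lists of the alpha and delta cell gave no calls. Counts at an unadjusted p under 0.05 stand beside a share of 8.97% over all tested probes in either direction. Of 9 alpha cell markers tested, 0 passed in either direction, 4 had negative differences and the median was 0.0005; at an unadjusted p under 0.05 in limma 2 were lower and 3 higher. Their summed level was 165 to 245 in Glis3KO2 and 217 to 241 in WT, in units of the array's 75th percentile, and Gcg made 61.2% to 81.8% of it per array. Of 7 delta cell markers tested, 0 passed, 1 had a negative difference and the median was 0.29 (1 lower and 3 higher at an unadjusted p under 0.05 in limma), with sums of 542 to 715 in Glis3KO2 and 547 to 679 in WT. Ptprz1 made 83.8% to 88.7% of that sum per array, so the sum says little of Sst or the other markers. Whether the listed markers are particular to delta cells in whole pancreas was not tested, so their median need not describe those cells. Of 14 endocrine lineage factors, 0 passed in limma, 12 had negative differences and the median was -0.33; at an unadjusted p under 0.05 in limma 7 were lower and 0 higher. Among them Neurod1, which acts in endocrine maturation, read -1.38 without overlap (limma adjusted p = 0.110). With normexp it read -0.71 and passed (limma adjusted p = 0.0357, against 0.0304 to 0.389 over all alternatives). Pax6 read -0.73 on its brightest probe (limma adjusted p = 0.358) and -0.62 and -0.42 on its other probes (0.340 and 0.844). Neurog3, the gene that starts the endocrine programme, read -0.09 (limma adjusted p = 0.897) and Isl1 read -0.04 (0.982). Of 10 beta cell markers, 7 fell and 0 rose in limma, against 0.174% of all tested probes called lower and 0.0812% called higher. Differences were negative for 9 of the 10. The sums were 192 to 397 in Glis3KO2 and 734 to 904 in WT. Ins2 made 13.3% to 63.8% of that sum per array. On the Glis3KO2 arrays the amylin gene Iapp, also listed, exceeded Ins2, at 8.17, 6.98, 6.84 and 7.09 against 5.83, 5.31, 5.26 and 4.67. On every WT array Ins2 exceeded Iapp. Iapp did not fall (0.45, limma adjusted p = 0.688). The sum is thus led by different genes in the genotypes and says little of the dimmer beta cell markers.

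Other cell types that a whole pancreas holds gave 0 calls in limma in each of the duct, acinar, mesenchyme, endothelium, nerve, fat and leukocyte lists. Of their 44 tested markers, 4 were lower and 1 was higher at an unadjusted p under 0.05 in limma, close to the 8.97% over all tested probes. Hhex is also made by endothelial cells and Iroquois genes by nerve and connective tissue cells. All 6 endothelial markers had negative differences, with a median of -0.17 and sums of 21.3 to 25.1 in Glis3KO2 and 26.5 to 31.3 in WT. All 6 nerve and Schwann cell markers had negative differences, with a median of -0.25 and sums of 3.27 to 4.07 in Glis3KO2 and 4.04 to 4.88 in WT. S100b made 48.7% to 57.7% of the nerve sum and Flt1 made 34.9% to 41.9% of the endothelial sum. The neurofilament gene Nefl, singled out after its values were seen, read -0.81 (limma adjusted p = 0.101). All 7 mesenchyme markers had positive differences with a median of 0.15. The part of these cell types in the Irx2 and Irx1 differences was not tested.

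Ratios within an array need no scaling between arrays, and 3 of them, 1 of which is not reported here, were tested by exact 2-sided permutation over all 70 splits of the 8 arrays, with Benjamini-Hochberg adjustment over the 3. The first asked whether Irx2 and Gcg changed unequally. Set against the WT mean, the log2 ratio of the brightest probes was -0.52, -0.47, -0.27 and -0.40 in Glis3KO2 and -0.01, -0.04, 0.08 and -0.04 in WT, so Irx2 was lower relative to Gcg on every Glis3KO2 array. The difference was -0.41 (exact permutation p = 0.0286, the smallest this design can give, adjusted p = 0.0429). Adjusted over the 2 ratios given here alone, the p was 0.0571 (exact permutation) and did not pass. With normexp the difference was -0.12 (exact permutation, adjusted p = 0.171), and with the mean of all tested probes of each gene -0.13 (exact permutation, adjusted p = 0.314). Over all alternatives the adjusted p ran between 0.0286 and 0.314.

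The other ratio set Hhex against Sst. The ratio was -0.45, 0.83, 1.09 and 0.70 in Glis3KO2 and 0.20, -0.10, 0.05 and -0.15 in WT. Glis3KO2 array 1 lay below WT and the other Glis3KO2 arrays above it. The difference was 0.54 and did not pass (exact permutation p = 0.143). Without Glis3KO2 array 1 it was 0.87 (exact permutation, adjusted p = 0.0286, against up to 0.667 in other alternatives).

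**Figure D4:**
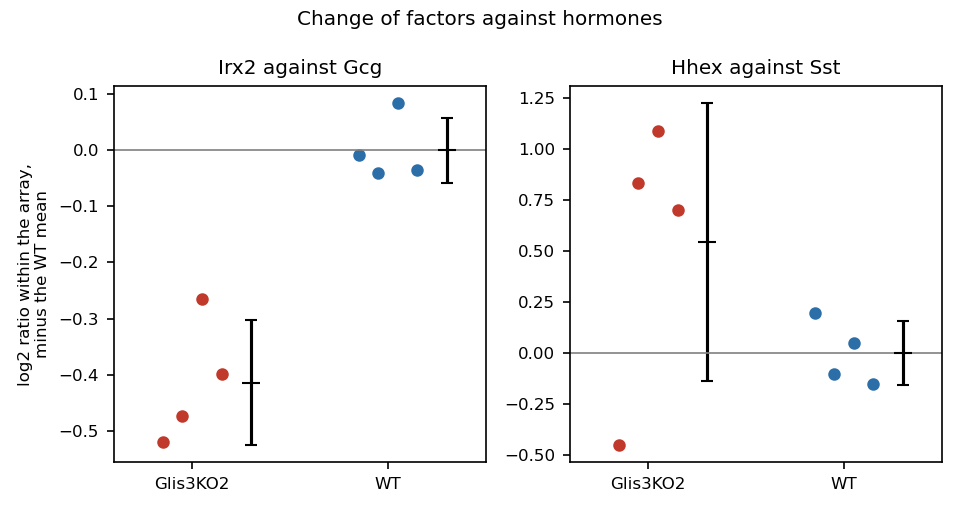
Log2 ratio of each factor to its partner on each array, minus the WT mean (Irx2 to Gcg and Hhex to Sst, brightest probes), Glis3KO2 left of WT; bars give the mean ± SD of 4 arrays. The Irx2 ratio is lower on all 4 Glis3KO2 arrays than on any WT array, and the Hhex ratio is higher on 3 Glis3KO2 arrays and lower on array 1 (-0.45).

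Genes whose centred profile over the 8 arrays was most like that of Irx2, by the root mean square of the differences, were Fbxl16 at 0.0905, Map3k15 at 0.0910 and Tmsb15l at 0.0918 log2 units. Fbxl16 encodes an F-box protein, Map3k15 a kinase of the MAP kinase cascade and Tmsb15l a beta thymosin. The choice fixed their direction. Their own differences were -0.79 for Fbxl16 (limma adjusted p = 0.0332), -0.98 for Map3k15 (limma adjusted p = 0.0434) and -0.87 for Tmsb15l (limma adjusted p = 0.0807). The Fbxl16 and Map3k15 calls, like that of Irx2, ended when any 1 array other than Glis3KO2 array 1 was left out, with adjusted p-values up to 0.150 and 0.183. The genes most like Hhex in profile were Zfp708 at 0.0807, Mcmbp at 0.0929 and Phip at 0.0954.

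The sizes of the member differences also depended on how signals were turned into levels. For the brightest Irx2 probe the difference was -0.85 after quantile normalization (limma adjusted p = 0.0150), -0.85 after centring on the median (limma adjusted p = 0.0197) and -0.57 with normexp. The median over all tested probes moved between -0.04 and 0.02 under these settings. The 2 brighter Irx2 probes and the brighter Irx1 probe were lower in Glis3KO2 under every setting computed. Their groups did not overlap, so leaving out or weighting arrays could not turn their sign. The filter, the variance model and the replicate block could not turn it either. Only the background correction, the scaling and the Xist covariate could. The third Irx2 probe, Irx4, Irx6, both Hhex probes and Pou3f4 changed sign under at least 1 setting.

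**Figure D5:**
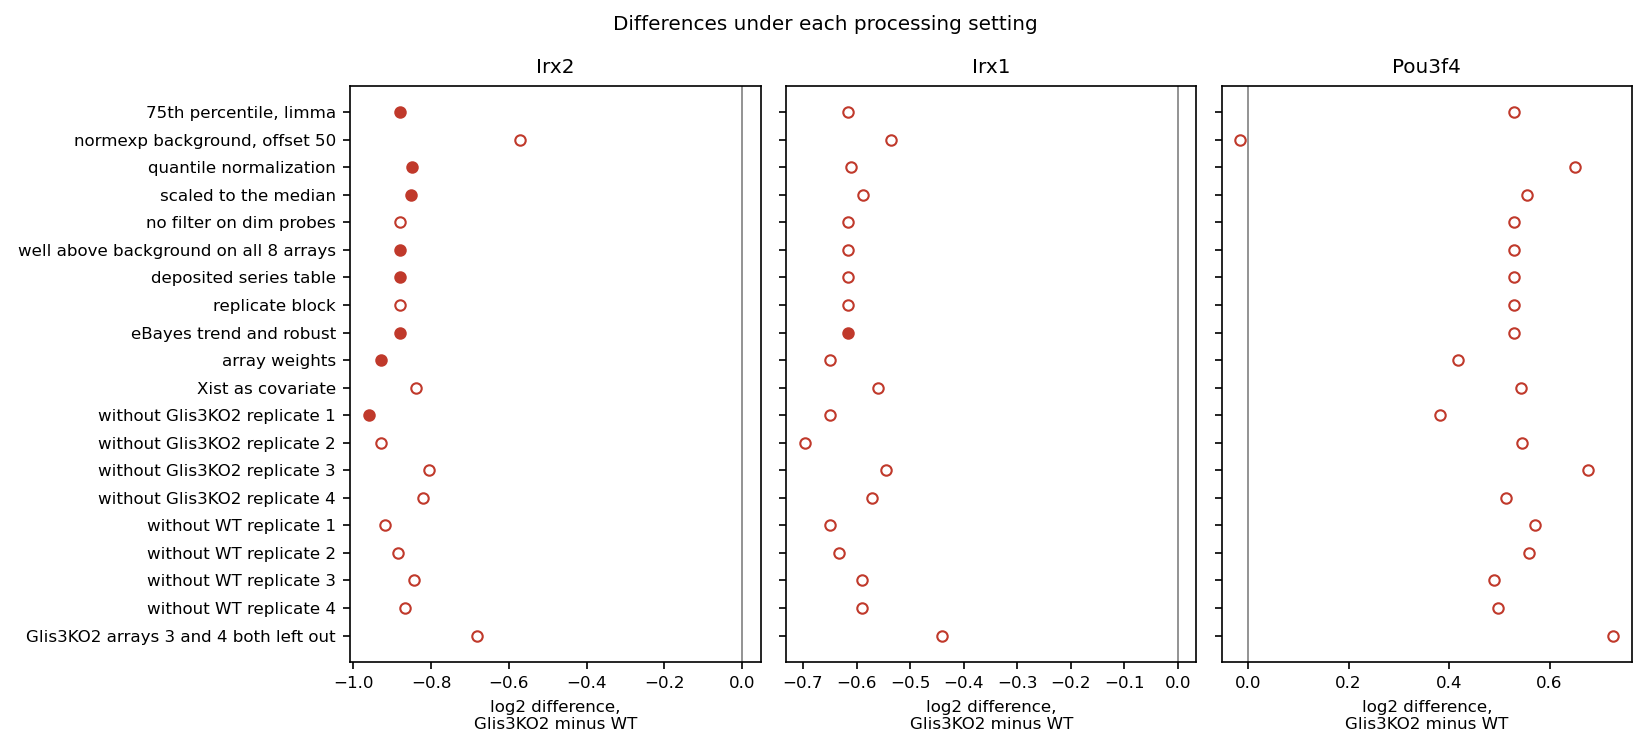
Log2 difference, Glis3KO2 minus WT, of the brightest Irx2, Irx1 and Pou3f4 probes under each processing setting, 1 panel per gene; filled points have an adjusted p under 0.05 in limma. The brightest Irx2 probe stays between -0.96 and -0.57 and is filled under some settings and open under others.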

How the data were processed

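Groups and replicate numbers came from the sample titles. The files the authors deposited give the intensity of each spot, unlogged, as read by Agilent Feature Extraction 9.5.3.1, per the file headers (version 9.5 per the submitters' processing notes), with background method code 7. The labelling started from 500 ng of total RNA, per the labels' protocols. Probe positions are those of mm7, per the file headers. The processed signals carry no scaling between arrays, and those of dim probes depend on the background removal.

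From these, log2 of the processed signal minus the 75th percentile over all non-control spots was taken. Then 56 to 130 outlier spots per array were removed, and the remaining spots of a probe were averaged. Probes well above background on at least 4 of 8 arrays were tested with limma 3.58.1 (lmFit and eBayes, 2-sided, genotype as the term) in R 4.3.3, with Benjamini-Hochberg adjustment over 33238 probes. The fit was tested on simulated data with independent noise and no slide effect, so that test does not bear on slide or outlying arrays. The reference table held the RefSeq accession of 22951 of 25510 probes and gave newer symbols. Genes other than members were read from their brightest probe. The number of arrays limits the precision.

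The text covers every member probe, with the single probes of Irx3, Irx4 and Irx5 given by gene alone. It also names the hormones, Isl1, Pax6, Neurog3, Neurod1, list members past the threshold in the alpha, delta, pancreatic polypeptide and lineage lists, the neighbours of the Iroquois clusters, and 3 profile neighbours each of Irx2 and Hhex. The members and the 12 gene lists were chosen with earlier results of these data known, and values of some genes that the rule names are not reported here. Alternatives covered background correction, scaling, the filter, variance model, array weights, Xist, a replicate block, probe choice and left-out arrays.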

Additional observations from a re-analysis of the deposited data

Results flagged for a closer look

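The Irx6 probe A_51_P347859 was singled out because 1 sample lay far from the others of its group. Glis3KO2 array 3 read -3.62, against -3.19 to -3.13 on the other Glis3KO2 arrays, and the gap was 0.886 of the group's range, above Dixon's critical value for 4 samples. Of 26 groups examined in this way, this was the 1 beyond the limit, and chance flags about 1 in 20 such groups.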

How the results depend on the processing

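The deposited series table was identical to the processed signal and gave the same values. The brightest Irx2 probe was lower in Glis3KO2 under all 19 alternatives computed. Its groups did not overlap, so most of these alternatives, other than background correction, scaling and Xist, could not have turned its sign. Its limma call ended with normexp (-0.57, adjusted p = 0.0619), without a filter on dim probes (-0.88, 0.0808) and with a replicate block (-0.88, 0.241). The limma call also ended with Xist as a covariate (-0.84, adjusted p = 0.230) and without Glis3KO2 arrays 3 and 4 (-0.68, 0.209). Leaving out 1 array at a time gave -0.96 to -0.80 for Irx2 and 0 to 1 member probes called. The count of member probes was 0 under each of those 5 settings and 2 with a variance trend and robust moderation. Over all probes the count of 85 became 51 without the filter, 15 with the replicate block, 142 with the variance trend, 27 with Xist, 11 without Glis3KO2 arrays 3 and 4, and 35 to 96 with 1 array left out. More probes were tested without the filter, and fewer arrays were used when some were left out. The causes of the changed counts were not tested.

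Same-numbered arrays had correlated deviations of 0.129, 0.0893, 0.237 and -0.0375. Not all were over 0.1, so the numbers were not taken to pair the samples. Of the Glis3KO2 arrays 2 of 4, and of the WT arrays 3 of 4, correlated best with their own number in the other genotype.

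Signs turned for Irx6 (-0.030) and Pou3f4 A_51_P354003 (-0.015) with normexp, Irx2 A_52_P635312 (0.047) with quantile normalization, Irx4 (-0.00068) with array weights, Hhex A_51_P265824 (0.025) with Xist, and Isl1 (0.21) without Glis3KO2 arrays 3 and 4. With 1 array left out the ranges were -0.28 to 0.0045 for the brighter Hhex probe, -0.16 to 0.26 for Irx4, -0.27 to 0.14 for Irx2 A_52_P635312, -0.21 to 0.15 for Isl1 and -0.16 to 0.011 for Neurog3.

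The Irx2 to Gcg ratio (-0.46 to -0.38 with 1 array left out) no longer passed the exact permutation test in 5 settings. These were normexp (-0.12), the mean of all tested probes (-0.13), Glis3KO2 arrays 3 and 4 left out (-0.50), the mean of the probes well above background on all 8 arrays (-0.41), and adjustment over the 2 ratios reported (-0.41, adjusted p = 0.0571). The last 2 settings were chosen after seeing the data. The Hhex to Sst ratio was 0.36 to 0.87 with 1 array left out. With 2 Glis3KO2 arrays against 4 the test cannot pass. Signal near background limits Irx3, Irx5, the dimmer Irx1 probe and Pou3f4.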
